A study of Arabidopsis thaliana with 4 samples.

Results

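Brassinosteroids are growth-promoting plant steroids, and the 10 genes described here encode enzymes that make or destroy them. The genes were taken by locus: 8 synthesis genes (DWF4, CPD, DET2, BR6OX1, BR6OX2, ROT3, CYP90D1 and DWF1) and 2 inactivation genes (BAS1 and CYP72C1), out of 33518 loci in the count tables. All 10 passed the low-count filter, which kept 20320 loci. RNA came from Arabidopsis thaliana seedlings kept 5 days on half-strength MS medium in constant light. The HBI1-Ox group carries 35S::HBI1-YFP, in which the cauliflower mosaic virus 35S promoter, active in most tissues, drives the bHLH transcription factor HBI1 fused to yellow fluorescent protein. The comparison group is wild-type Col-0, and each group has 2 libraries. The question was how the transcriptome of the overexpressor differs from that of the wild type. The labels name no transformation event and no separate cultures, so HBI1 level cannot be told apart from other features of the line, and the p-values reflect library-to-library spread that may be technical.

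Brassinosteroids arise from the membrane sterol campesterol through side-chain hydroxylations, ring reduction and ring oxidations, most of them by cytochrome P450 enzymes. The hormone is perceived at the cell surface by BRI1 and acts through the transcription factors BZR1 and BES1. When hormone is plentiful, these factors repress synthesis genes such as DWF4 and CPD, while BAS1 is induced, so transcript levels of the enzymes are part of a feedback loop. In seedlings the pathway is known for its role in hypocotyl elongation and in the response to light.

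Of the 10 enzyme genes, 2 rose in HBI1-Ox and none fell at an adjusted p under 0.05. Both were synthesis genes. DET2, another synthesis gene, was lower in 2 of the alternative analyses described with it. DWF4, the side-chain hydroxylase regarded as rate-limiting, rose 1.67-fold. CPD, an oxidase that acts beside it in the pathway, rose 1.41-fold. Neither inactivation gene passed the test. Over all 20320 tested loci, 15.5% were called in either direction, with 8.33% higher and 7.15% lower. With only 10 genes, 2 calls are therefore close to the share seen across the transcriptome. In whole seedlings a change in transcript per cell and a change in the proportion of expressing cells cannot be told apart.

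Reads on genes ranged from 10785178 to 19647745 per library. The overexpressed gene matched its label: HBI1 had 29143 and 21481 reads in the HBI1-Ox libraries, against 1345 and 975 reads in the Col-0 libraries, a log2 change of 4.06 ± 0.09 (± standard error, as for each log2 change below). The pair of HBI1-Ox libraries was nearer to counting error than the Col-0 pair, though above it, with a mean chi-square per gene of 1.72 against 8.04. In the HBI1-Ox pair 64 of 20127 nuclear genes told its members apart, against 2322 of 20074 genes for the Col-0 pair. Of the seedling markers, the 3 green-tissue genes summed to 31011 and 32232 CPM (counts scaled to a common library size) in HBI1-Ox, against 28357 and 28284 CPM in Col-0. The 3 root genes summed to 3656 and 3599 CPM in HBI1-Ox, against 5904 and 5691 CPM in Col-0. Nearly all of each root sum was PYK10, at 3489 and 3435 CPM in HBI1-Ox, against 5721 and 5516 CPM in Col-0. In each list 1 gene was called, LHCB2.1 higher and PYK10 lower, while the other 2 root markers, CASP1 and PRX72, did not pass, at log2 changes of -0.12 ± 0.06 and -0.09 ± 0.06. No green-tissue or root marker was at 0, and the seed and flower markers SESA1 and AP3 had at most 6 reads in any library, while the seed gene CRA1 lay between 6.87 and 11.6 CPM. The part of these marker differences in the results below was not tested.

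The upstream windows of DWF4 and CPD, the genes that rose, and of DET2, the synthesis gene with the most negative change, are printed here in the direction of transcription. Each window runs from 250 bases before to 50 bases after the outermost annotated gene start, in TAIR10.1 of RefSeq, and all 3 genes lie on the minus strand. The windows are chr3:18817356-18817655 for DWF4, chr5:1706899-1707198 for CPD and chr2:15922272-15922571 for DET2. Capitals mark every CANNTG, the E-box core that bHLH proteins as a class can bind.
DWF4: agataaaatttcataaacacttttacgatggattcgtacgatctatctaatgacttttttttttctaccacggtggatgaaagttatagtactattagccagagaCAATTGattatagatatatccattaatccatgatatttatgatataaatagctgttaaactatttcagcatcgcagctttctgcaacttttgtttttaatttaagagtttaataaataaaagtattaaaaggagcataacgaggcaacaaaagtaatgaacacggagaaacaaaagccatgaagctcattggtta
CPD: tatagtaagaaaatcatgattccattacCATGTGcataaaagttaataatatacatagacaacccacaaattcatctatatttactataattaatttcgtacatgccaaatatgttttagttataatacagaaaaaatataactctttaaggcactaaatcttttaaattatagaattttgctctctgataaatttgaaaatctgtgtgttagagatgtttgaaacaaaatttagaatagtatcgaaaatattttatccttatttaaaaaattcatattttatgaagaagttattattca
DET2: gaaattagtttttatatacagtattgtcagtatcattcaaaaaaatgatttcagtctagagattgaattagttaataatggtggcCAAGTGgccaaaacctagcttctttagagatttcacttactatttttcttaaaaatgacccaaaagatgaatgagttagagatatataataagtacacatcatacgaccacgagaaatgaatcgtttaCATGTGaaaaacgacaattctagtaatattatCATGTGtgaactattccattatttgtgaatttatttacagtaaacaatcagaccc

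DWF4 had 1 E-box core in its window, CAATTG, starting 145 bases before the gene start. CPD had 1 as well, a CATGTG whose first base lies 222 bases before the gene start. DET2 had 3, namely CAAGTG and 2 copies of CATGTG. Searched on both strands, CANNTG occurred in the windows of 9 of the 10 enzyme genes, BR6OX2 being without one, and in 61.7% of 27443 protein-coding nuclear genes. CATGTG, which is one form of CANNTG, occurred in 6 of the 10 windows and in 12.9% of all windows. Neither CACGTG nor the brassinosteroid response elements CGTGTG and CGTGCG occurred in any of the 10 windows; their shares over all windows were 7.68%, 6.52% and 1.96%. A match in these letters is a description only, and the windows do not reach the whole promoter. In the annotated models the coding sequence of DWF4 begins 237 bases after the gene start, and that of CPD begins 243 or 600 bases after it, depending on the model.

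DWF4 (AT3G50660; chromosome 3, 18813949 to 18817405, minus strand, 7 exonic blocks) had 1001 and 693 reads in HBI1-Ox libraries 1 and 2, against 420 and 350 reads in Col-0 libraries 1 and 2. Scaled for library size, its level was 53.8 and 48.7 CPM in HBI1-Ox, against 31.0 and 30.4 CPM in Col-0. Both HBI1-Ox libraries lay well above both Col-0 libraries, and the gap was several times the difference within either pair. The log2 change was 0.74 ± 0.08, with a 95% interval of 0.56 to 0.92 and an adjusted p of 0.00186 (edgeR, quasi-likelihood). DWF4 was higher with an adjusted p under 0.05 in all 12 alternative analyses, with log2 changes of 0.59 to 0.81. The alternatives reuse the same libraries, and some leave a single sample in a group, which then borrows its spread from the other group. The authors' deposited table, which lists 1256 genes, gives DWF4 a log2 fold change of 0.76. DWF4 was the only one of the 10 enzyme genes in the authors' deposited table, whose smallest absolute log2 fold change is 0.56, above the size of the change of every other enzyme gene here.

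CPD (AT5G05690; chromosome 5, 1702640 to 1706948, minus strand, 8 exonic blocks) was second only to DWF1 in level per kilobase of exon. It had 3553 and 2749 reads in HBI1-Ox, against 1890 and 1525 reads in Col-0. Its level was 191 and 193 CPM in HBI1-Ox, against 140 and 132 CPM in Col-0, so the groups did not overlap and the HBI1-Ox pair was nearly identical. The log2 change was 0.50 ± 0.06, with a 95% interval of 0.36 to 0.64 and an adjusted p of 0.00298. CPD missed the threshold when HBI1-Ox library 1 (adjusted p = 0.0814) or 2 (0.0848) was left out and when they were summed into 1 sample (0.0772), while its log2 change there stayed between 0.49 and 0.51. It was called in the other 9 alternatives.

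**Figure D1:**
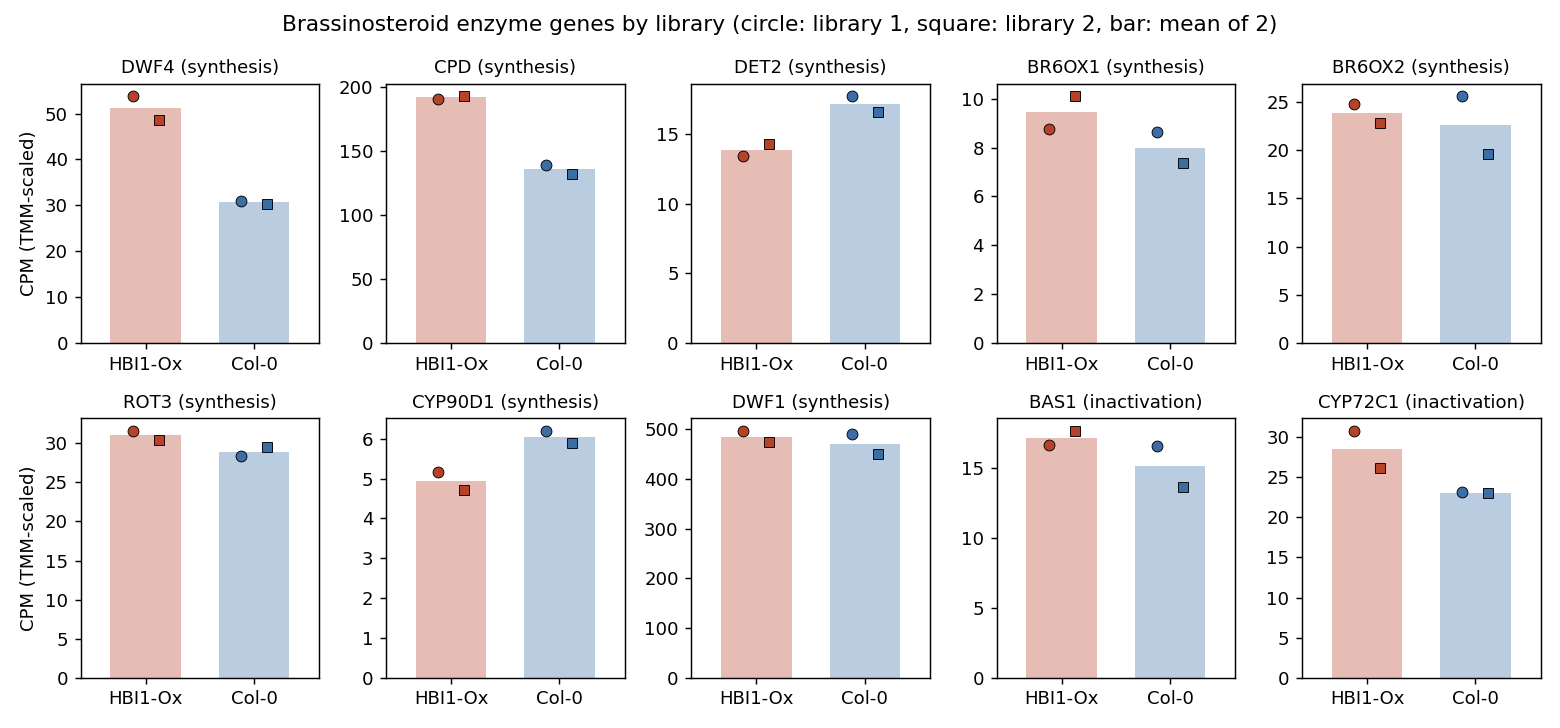
Level of each enzyme gene in CPM (vertical axis, from 0) in HBI1-Ox and Col-0. Circles are library 1, squares library 2 and bars the mean of the pair; DWF4 and CPD show the widest separation between groups, and BR6OX2 and DWF1 overlap.

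DET2 encodes the steroid reductase that reduces the ring system of the precursor, a step on the way from campesterol to campestanol-type intermediates. DET2 (AT2G38050; chromosome 2, 15921136 to 15922321, minus strand) had 13.4 and 14.3 CPM in HBI1-Ox, against 17.7 and 16.6 CPM in Col-0. Both HBI1-Ox libraries were below both Col-0 libraries, the opposite order from DWF4 and CPD. The log2 change of -0.31 ± 0.09 had a 95% interval of -0.54 to -0.08 and did not pass (edgeR adjusted p = 0.0754). It passed in 2 of 12 alternatives, without Col-0 library 2 (adjusted p = 0.0142) and with scaling by total counts (0.0184). Per kilobase of exon, DWF4 stood at 1.55 and 1.32 times DET2 in the HBI1-Ox libraries, against 0.677 and 0.709 times DET2 in the Col-0 libraries. By this measure DWF4 was the higher of the pair in both HBI1-Ox libraries and the lower in both Col-0 libraries. That order rests on annotated exon lengths of 2844 bases for DWF4 and 1101 bases for DET2. In CPM, without division by length, DWF4 was above DET2 in every library. The ratio of CPD to DET2 was 8.11 and 7.73 in HBI1-Ox, against 4.49 and 4.56 in Col-0. No test was applied to these ratios.

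ROT3 and CYP90D1 encode related P450 enzymes that hydroxylate a neighbouring carbon of the side chain and can stand in for each other. ROT3 (AT4G36380) had 31.6 and 30.4 CPM in HBI1-Ox, against 28.3 and 29.5 CPM in Col-0. CYP90D1 (AT3G13730), the lowest of the 10 per kilobase of exon, had 5.16 and 4.71 CPM in HBI1-Ox, against 6.20 and 5.90 CPM in Col-0. ROT3 therefore lay slightly above Col-0 in HBI1-Ox and CYP90D1 below it, in each case without overlap between groups. The log2 change was 0.10 ± 0.07 for ROT3 (95% interval -0.06 to 0.26, adjusted p = 0.352). For CYP90D1 it was -0.29 ± 0.15 (95% interval -0.66 to 0.08, adjusted p = 0.258). The CYP90D1 counts, between 67 and 96 reads per library, leave a change of -36.6% within the interval. ROT3 and CYP90D1 share 60.7% of aligned coding bases.

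BR6OX1 and BR6OX2 encode the P450 oxidases that complete the active hormone: both make castasterone, and BR6OX2 can convert it further to brassinolide. BR6OX1 (AT5G38970) had 8.76 and 10.1 CPM in HBI1-Ox, against 8.64 and 7.37 CPM in Col-0. The lower HBI1-Ox library exceeded the higher Col-0 library only by a margin smaller than the spread within either group. Its log2 change was 0.23 ± 0.15 (95% interval -0.12 to 0.57, adjusted p = 0.346). BR6OX2 (AT3G30180) had 24.8 and 22.8 CPM in HBI1-Ox, against 25.6 and 19.6 CPM in Col-0, and both HBI1-Ox values fell between the Col-0 values. Its log2 change was 0.07 ± 0.13 (95% interval -0.24 to 0.38, adjusted p = 0.758), and which Col-0 library was kept decided its sign. Without Col-0 library 1 the log2 change was 0.30 and passed (adjusted p = 0.0302), and without Col-0 library 2 it was -0.10. The coding sequences of BR6OX1 and BR6OX2 are 81.9% identical over 1398 bases, the closest pair among the 8 P450 genes here. Reads counted as ambiguous or as not uniquely aligned were left out. Whether every read common to both genes was among them is not stated, so the separate values of BR6OX1 and BR6OX2 are uncertain.

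DWF1 acts before the hormone-specific steps and reduces the sterol side chain to give campesterol. DWF1 (AT3G19820), the highest of the 10 per kilobase of exon, had 497 and 474 CPM in HBI1-Ox, against 491 and 451 CPM in Col-0. The groups overlapped. The log2 change was 0.04 ± 0.06 (95% interval -0.11 to 0.20, adjusted p = 0.697), so the interval holds changes from -7.4% to 14.7%. Without Col-0 library 1 it was 0.12 and passed (adjusted p = 0.0243), and without Col-0 library 2 it was -0.015.

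The inactivation genes encode P450 enzymes of a different branch. BAS1 hydroxylates the end of the side chain of castasterone and brassinolide, which removes their activity. BAS1 (AT2G26710; chromosome 2, 11380463 to 11383821, plus strand) had 16.7 and 17.7 CPM in HBI1-Ox, against 16.6 and 13.7 CPM in Col-0. HBI1-Ox library 1 and Col-0 library 1 were almost equal, and Col-0 library 2 was the low value. The log2 change was 0.17 ± 0.12 (95% interval -0.10 to 0.45, adjusted p = 0.365). It was 0.33 and passed without Col-0 library 1 (adjusted p = 0.04), and 0.045 without Col-0 library 2.

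CYP72C1, a P450 that shortens hypocotyls when overexpressed and lowers brassinosteroid levels, had 30.8 and 26.1 CPM in HBI1-Ox, against 23.1 and 23.0 CPM in Col-0. Both HBI1-Ox libraries lay above the Col-0 pair, which was nearly identical. The log2 change of 0.31 ± 0.10 had a 95% interval of 0.08 to 0.54 and missed the threshold (edgeR adjusted p = 0.0795). It passed without the low-count filter (adjusted p = 0.0357) and when either Col-0 library was left out (0.00977 for library 1 and 0.00895 for library 2). CYP72C1 (AT1G17060; chromosome 1, 5832094 to 5835488, minus strand) overlaps a locus on the other strand, AT1G17065, over 687 exonic bases. The strand setting of the counting is not stated, and reads counted as ambiguous were left out. How far reads from these shared bases are missing from the CYP72C1 counts, or included in them, is thus not known. CPD, DET2 and ROT3 overlap a neighbour on the other strand by 20, 35 and 83 exonic bases.

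Set side by side, the 8 synthesis genes had a median log2 change of 0.09, with 2 higher, none lower and 6 not called. The 2 inactivation genes had log2 changes whose median was 0.24, with neither called. The median over all tested loci was -0.01. Of the 10 genes, 8 had a positive and 2 a negative log2 change with TMM scaling, but with scaling by total counts, which moved the median of all loci to -0.16, BR6OX2, ROT3 and DWF1 turned negative. The CPM values of the groups did not overlap in 8 of the 10 genes (6 with HBI1-Ox above and 2 with HBI1-Ox below), against 60.7% of all tested loci. Among these, BAS1 and BR6OX1 were barely apart. Their lower HBI1-Ox and higher Col-0 values were 16.67 against 16.61 CPM for BAS1 and 8.76 against 8.64 CPM for BR6OX1. DWF4 stood at 2.51 and 2.14 times BAS1 per kilobase in the HBI1-Ox libraries, against 1.45 and 1.72 times BAS1 in the Col-0 libraries. Within the synthesis branch the changes were thus uneven, from -0.31 for DET2 to 0.74 for DWF4, and the values of both inactivation genes lie inside that range.

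**Figure D2:**
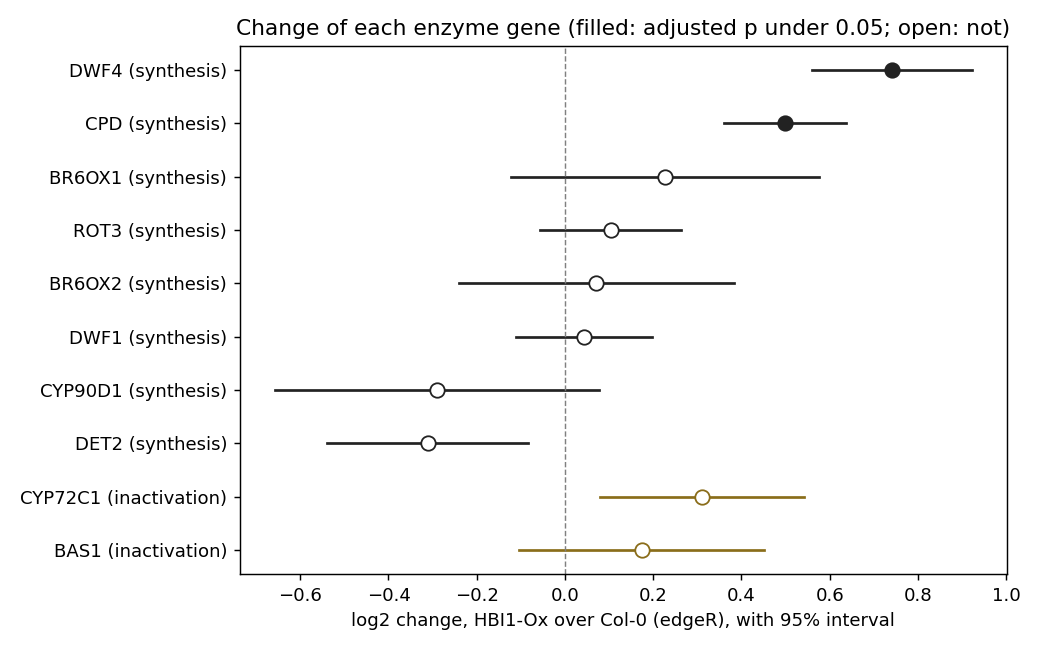
Log2 change of each enzyme gene, HBI1-Ox over Col-0, with its 95% interval (horizontal axis); synthesis genes are black, inactivation genes ochre, and filled points passed an adjusted p of 0.05. DWF4 at 0.74 and CPD at 0.50 are filled, and the intervals of DET2 and CYP72C1 also lie to one side of 0 although these genes did not pass after adjustment.

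The order of transcript levels was compared per kilobase of annotated exon. In HBI1-Ox it ran DWF1 (180 ± 6 CPM per kb, mean ± SD of 2 libraries), CPD (99.6 ± 0.8), DWF4 (18.0 ± 1.3), CYP72C1 (14.4 ± 1.7), ROT3 (12.9 ± 0.4), DET2 (12.6 ± 0.5), BR6OX2 (12.4 ± 0.7), BAS1 (7.78 ± 0.33), BR6OX1 (4.61 ± 0.47) and CYP90D1 (2.22 ± 0.14). In Col-0 it ran DWF1 (175 ± 10), CPD (70.4 ± 2.7), DET2 (15.6 ± 0.7), ROT3 (12.1 ± 0.3), BR6OX2 (11.8 ± 2.2), CYP72C1 (11.6 ± 0.04), DWF4 (10.8 ± 0.2), BAS1 (6.86 ± 0.93), BR6OX1 (3.91 ± 0.44) and CYP90D1 (2.72 ± 0.10). DWF4 stood in place 3 in HBI1-Ox, against place 7 in Col-0, and DET2 in place 6, against place 3. These places depend on the annotated exon lengths, which were not checked against the transcripts expressed. The libraries of ROT3, DET2 and BR6OX2 overlapped in HBI1-Ox, and in Col-0 those of BR6OX2 overlapped with ROT3, CYP72C1 and DWF4, so the order among these is not resolved. The top pair and the 3 lowest genes kept their places in both groups.

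**Figure D3:**
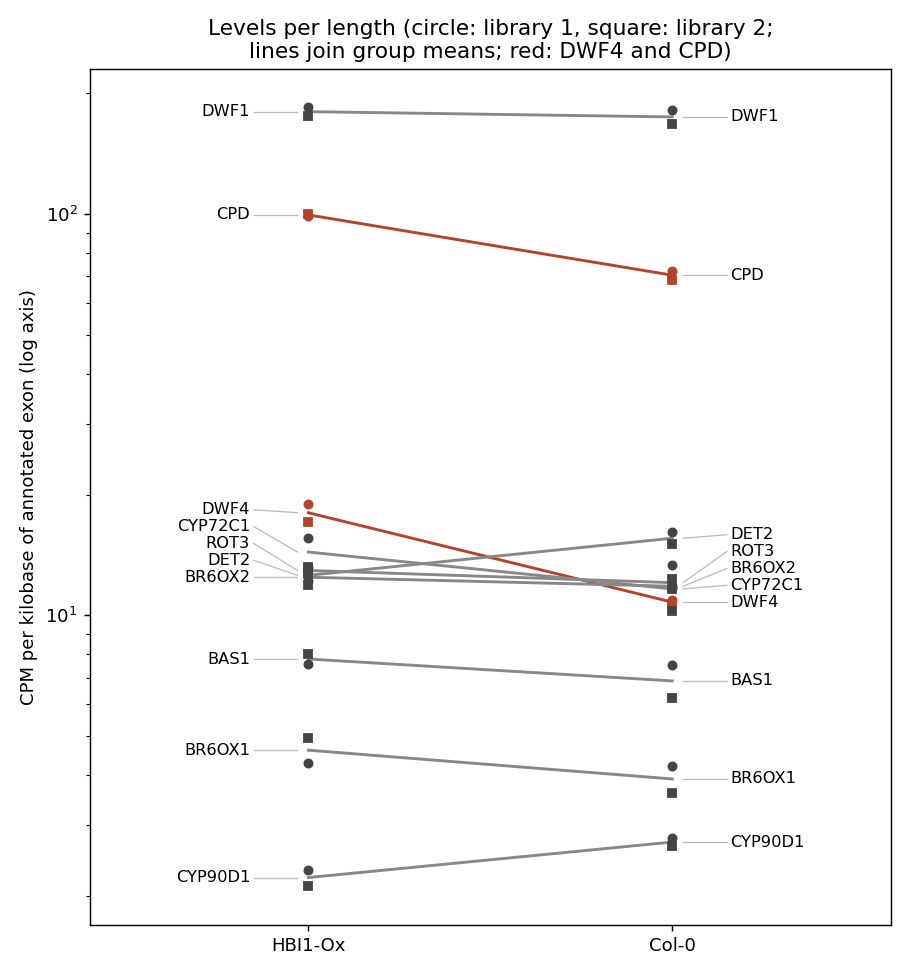
Level per kilobase of annotated exon (log axis) in HBI1-Ox and Col-0; circles are library 1, squares library 2, and lines join the group means, red for DWF4 and CPD. DWF4 lies at 18.0 CPM per kb in HBI1-Ox, above the middle group of genes, and at 10.8 CPM per kb in Col-0, at its lower edge.

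The number of enzyme genes called depended on the libraries used. It was 1, DWF4, when HBI1-Ox library 1 or 2 was left out or both were summed, where 2.07%, 2.47% and 2.79% of all tested loci were called. Without Col-0 library 1 it was 6, all higher, and without Col-0 library 2 it was 4, of which 3 were higher and DET2 was lower, with 31.5% and 27.9% of all loci called. In each of these fits the group left with a single sample borrows its spread from the other.

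**Figure D4:**
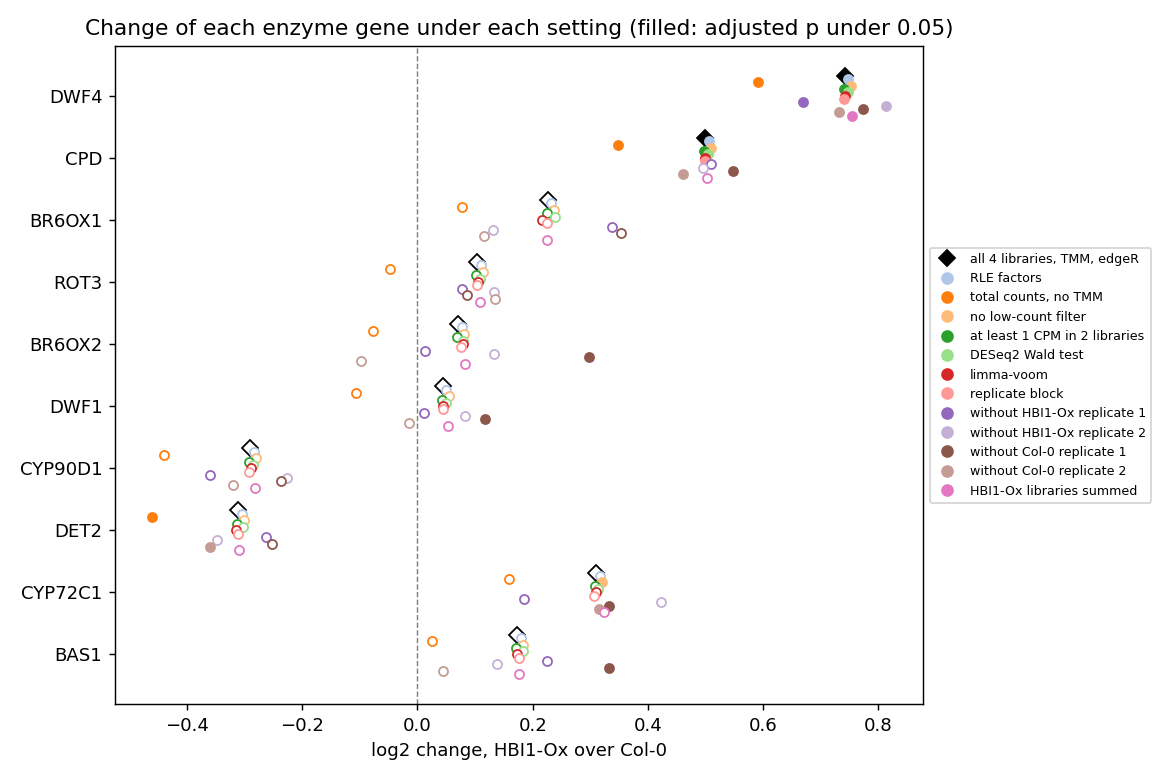
Log2 change of each enzyme gene, HBI1-Ox over Col-0 (horizontal axis), in the analysis of all 4 libraries (black diamond) and under each of 12 alternatives (coloured circles); filled symbols passed an adjusted p of 0.05. DWF4 is filled throughout, CPD lacks a call in 3 settings, and BR6OX2, ROT3 and DWF1 lie on both sides of 0.

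Genes that supply sterol precursors were examined as the next layer of the pathway. Of 23 sterol enzyme genes, 5 rose, none fell and 18 did not pass, with a median log2 change of 0.12, beside 15.5% called and 8.33% higher over all tested loci. HMG1, which encodes HMG-CoA reductase of the mevalonate pathway, had 558 and 537 CPM in HBI1-Ox, against 402 and 389 CPM in Col-0, and rose by 0.47 ± 0.06 on the log2 scale (adjusted p = 0.00325). The sterol methyltransferase genes SMT1 and SMT2 rose by 0.27 ± 0.05 and 0.32 ± 0.06; SMT2 directs sterols towards sitosterol, away from the campesterol branch. SMO2-1 and 3BETAHSD/D2, whose products act in removal of ring methyl groups, rose by 0.26 ± 0.07 (adjusted p = 0.0472) and 0.38 ± 0.09 (adjusted p = 0.0356). Both lost the call with DESeq2 (adjusted p = 0.361 for SMO2-1 and 0.243 for 3BETAHSD/D2), with total counts (0.289 and 0.12) and with the replicate block (0.0804 and 0.0544), and SMO2-1 also with limma-voom (0.0618). Without either HBI1-Ox library, or with these libraries summed, none of the 23 was called, against 10 when Col-0 library 1 was left out and 8 when library 2 was. The share called over all loci moved the same way, to between 2.07% and 2.79% in the first 3 fits and to 31.5% and 27.9% in the last 2. With scaling by total counts 1 was higher and 2 were lower, where 4.9% of all tested loci were higher and 17.2% lower. SMT1 and SMT2 also lost the call with that scaling (adjusted p = 0.153 and 0.0721).

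Further inactivation genes, for reductases and for acyl-, glucosyl- and sulfotransferases, numbered 7, of which 6 were tested. Of these, 1 fell, none rose and 5 did not pass, with a median log2 change of -0.33, where 15.5% of all tested loci were called and 7.15% were lower. The log2 changes ran in both directions, from -0.58 to 0.79, and neither extreme was called. For the gene at -0.58 the Col-0 libraries differed widely, at 40.2 and 19.4 CPM, and the groups overlapped. BAT1, an acyltransferase gene whose product inactivates brassinosteroids, had 44.4 and 45.4 CPM in HBI1-Ox, against 55.2 and 56.7 CPM in Col-0. The groups were well apart, and BAT1 fell by 0.32 on the log2 scale (SE 0.06, adjusted p = 0.0208). BAT1 missed the threshold without either HBI1-Ox library, with these libraries summed and with DESeq2's Wald test, where no gene of this list was called. All of these fits called a smaller share of all tested loci than the main analysis, 9.81% for DESeq2.

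Among 8 genes for regulators of synthesis genes, 6 were tested, of which 2 rose and 4 did not pass, with a median log2 change of 0.20, where 15.5% of all tested loci were called and 8.33% were higher. PIF4 and PIF5 encode light-regulated bHLH factors known to activate DWF4 and BR6OX2. PIF4 had 85.9 and 84.6 CPM in HBI1-Ox, against 44.9 and 28.0 CPM in Col-0. The Col-0 libraries differed widely from each other, but both were below the HBI1-Ox pair, and PIF4 rose by 1.22 ± 0.19 (adjusted p = 0.00873). PIF5 had 91.1 and 93.8 CPM in HBI1-Ox, against 66.6 and 58.0 CPM in Col-0, and rose by 0.57 ± 0.08 (adjusted p = 0.00624). The feedback factors BZR1 and BES1 did not pass, at log2 changes of 0.02 ± 0.10 (95% interval -0.23 to 0.27) and 0.01 ± 0.10 (95% interval -0.23 to 0.24). Neither PIF gene was called without either HBI1-Ox library or with these libraries summed, fits that called a far smaller share of all tested loci. PIF4 had a log2 change of 1.62 when Col-0 library 1 was left out and 0.93 when library 2 was.

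Of 8 genes for perception and signalling, 7 were tested, of which 3 rose (BRI1, BKI1 and BIN2), 1 fell and 3 did not pass, with a median log2 change of 0.06, where 15.5% of all tested loci were called. The receptor gene BRI1 had 218 and 209 CPM in HBI1-Ox, against 164 and 152 CPM in Col-0 (log2 change 0.43 ± 0.06, adjusted p = 0.00705). BKI1, an inhibitor of BRI1, had 23.2 and 22.6 CPM in HBI1-Ox, against 17.1 and 16.5 CPM in Col-0 (log2 change 0.45 ± 0.08, adjusted p = 0.0142). BIN2, a kinase that restrains BZR1 and BES1, had 207 and 196 CPM in HBI1-Ox, against 171 and 166 CPM in Col-0 (log2 change 0.26 ± 0.06, adjusted p = 0.0292). In all 3 genes both HBI1-Ox libraries lay above both Col-0 libraries. BRL3, a receptor related to BRI1 and known from vascular tissue, had 6.61 and 7.10 CPM in HBI1-Ox, against 9.74 and 11.2 CPM in Col-0, and fell by 0.61 on the log2 scale (SE 0.13, adjusted p = 0.0291). None of the 7 was called without either HBI1-Ox library or with these libraries summed. Those fits called a far smaller share of all tested loci, as given above for the enzyme genes. BRL3 and BKI1 also missed the threshold with DESeq2 (adjusted p = 0.139 and 0.0836), and BIN2 with total counts (0.18). DESeq2 called 9.81% of all tested loci.

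**Figure D5:**
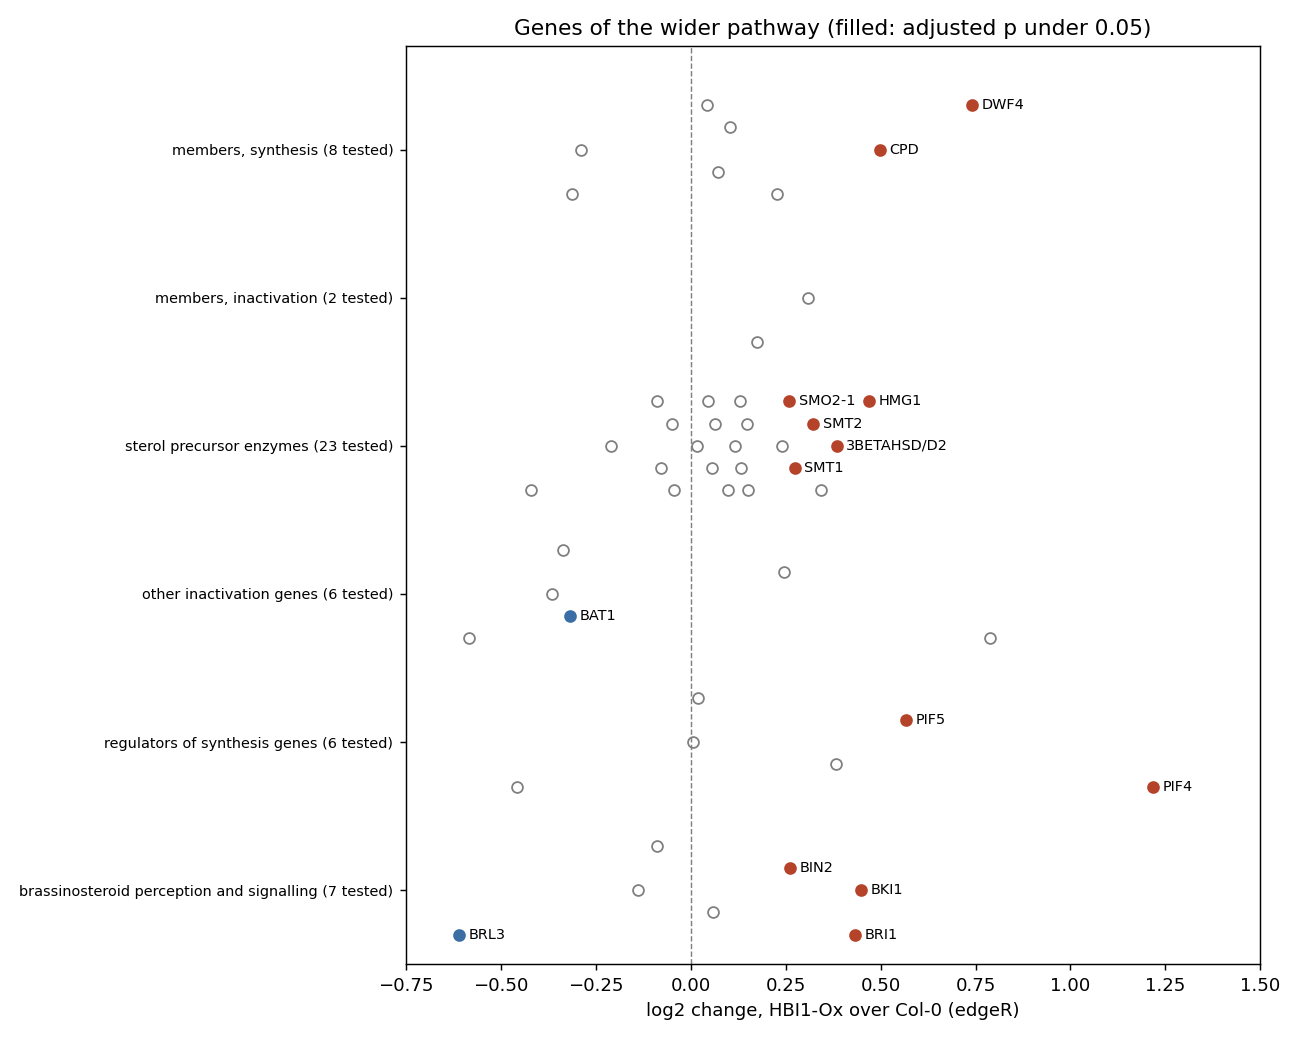
Log2 change, HBI1-Ox over Col-0 (horizontal axis), of every tested gene in the enzyme set and 4 further lists of the pathway; filled red points were higher, filled blue points lower, open points not called, and vertical scatter within a list only separates points. Calls in the enzyme set are limited to DWF4 and CPD, with PIF4 at 1.22 the highest value among all genes shown.

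The loci whose pattern over the 4 libraries came closest to that of DWF4, among 12523 others with a mean of at least 10 CPM, were AT2G48020, a major facilitator superfamily gene, OBP4 (AT5G60850) and AT4G26540, a receptor-like kinase gene. Their Euclidean distances from DWF4 on centred log2 CPM were 0.04, 0.04 and 0.05. Their log2 changes were 0.76, 0.71 and 0.75, near the 0.74 of DWF4. The loci were chosen by that distance over the same libraries, so the nearness of these changes follows from the choice.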

How the data were processed

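Total RNA of 4 seedling libraries, 2 of HBI1-Ox and 2 of Col-0, was sequenced from barcoded TruSeq libraries, per the labels' protocols. Per library, the authors deposited unnormalised read counts in whole numbers for each locus. A second deposited table holds log2 fold changes (HBI1-Ox over Col-0) for selected genes; the selection is not stated. TopHat, DESeq and TAIR10 are named in the submitters' processing notes; versions, read counter and strand setting are not stated. Rows of reads not assigned to a single gene, 13.2% to 13.7% of each file, were left out. Such rows are for reads outside genes, ambiguous, of low alignment quality, not aligned or not uniquely aligned.

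Counts were filtered with filterByExpr (minimum count 10, minimum total 15), scaled with TMM factors and fitted in 1 model of all 4 libraries without a block, leaving 2 residual degrees of freedom (edgeR 4.0.16, quasi-likelihood, R 4.3.3). Benjamini-Hochberg adjustment ran over all 20320 tested loci, with a threshold of 0.05. CPM use TMM-scaled library sizes; CPM per kb divide by the union of annotated exons. The standard error is the absolute log2 change over the square root of F, and 95% intervals use its t quantile. The biological coefficient of variation was 8.16%. The libraries of a pair were compared by chi-square over nuclear genes with at least 20 reads.

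Alternatives were RLE factors, total counts, no filter, 1 CPM in 2 libraries, DESeq2 1.42.0, limma-voom (limma 3.58.1), a replicate block, each library left out, and the HBI1-Ox libraries summed. The edgeR fit was also run on counts simulated from its own fitted dispersion, set equal in both groups. That setting does not copy the unequal spread within the 2 pairs. Gene models, windows and identities are from TAIR10.1 (RefSeq), matched by locus for 32709 loci; the count tables carry no coordinates. Named genes were the 10 enzymes, HBI1, tissue markers, called genes of the 4 pathway lists and the 3 loci nearest DWF4; BZR1 and BES1, not called, were named after their values were seen. Members and lists were chosen with earlier results of these data known.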

Additional observations from a re-analysis of the deposited data

How the results depend on the processing

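DWF4 was called in each of the 12 alternatives, with log2 changes of 0.59 to 0.81. The number of enzyme genes called was 2 in the main analysis, 1 with the HBI1-Ox libraries summed and 1 to 6 when each library was left out in turn. Leave-one-out log2 changes ran from 0.67 to 0.81 for DWF4, 0.46 to 0.55 for CPD, -0.36 to -0.25 for DET2, 0.12 to 0.35 for BR6OX1, -0.10 to 0.30 for BR6OX2, 0.08 to 0.13 for ROT3, -0.36 to -0.23 for CYP90D1, -0.015 to 0.12 for DWF1, 0.045 to 0.33 for BAS1 and 0.18 to 0.42 for CYP72C1. With the HBI1-Ox libraries summed CPD had a log2 change of 0.50 and missed the threshold. With scaling by total counts DET2 passed at -0.46, and BR6OX2, ROT3 and DWF1 turned to -0.078, -0.048 and -0.11, where the median of all loci moved to -0.16; 995 loci were then higher and 3494 lower, against 1693 and 1452 with TMM factors. CYP72C1 passed at 0.32 without the low-count filter. The cause of these shifts was not tested.

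Loci called over the whole table numbered 3145 in the main analysis, 1994 with DESeq2, 578 with the HBI1-Ox libraries summed and 429 to 6525 when each library was left out. Sterol genes called numbered 5 in the main analysis, 3 each with total counts, DESeq2 and the replicate block, 0 with the summed libraries and 0 to 10 with a library left out. Further inactivation genes numbered 1, against 2 without the filter, 0 with DESeq2, 0 summed and 0 to 3 with a library left out. Regulators numbered 2, against 0 summed and 0 to 4 with a library left out. Signalling genes numbered 4, against 2 with DESeq2, 0 summed and 0 to 4 with a library left out.

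Libraries share only a number across groups, and the correlation of deviations between same-numbered libraries was -0.003. With the replicate block 2796 loci were called, and DWF4 and CPD kept their calls as the only enzyme genes. Depth limits CYP90D1 and BR6OX1 most, with 67 to 163 reads per library.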
